A study of Mus musculus with 2 samples.

Results

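The Notch receptors, ligands and target genes were followed in satellite cells (SCs), the stem cells of skeletal muscle, before and after injury. The gene set held 10 genes taken by symbol from both count matrices: the receptors Notch1, Notch2 and Notch3, the ligands Dll1, Jag1 and Jag2, the nuclear factor Rbpj, and the target genes Hes1, Hey1 and Heyl. These were 10 of 32285 features in the files, and all 10 were among the 14443 genes found in at least 3 kept cells. One library held quiescent SCs (QSCs) sorted from uninjured tibialis anterior muscle, and the other held activated SCs (ASCs) sorted 1.5 days after injury with cardiotoxin, a snake venom toxin that destroys myofibres. Both came from Pax7 CreERT2/+ ;Rosa26 mTmG/+ mice aged 8 weeks, and each library pooled the cells of several animals. The CreERT2 recombinase is driven by Pax7 and acts only once induced. The fluorescent label of the sort thus follows cells that expressed Pax7 at induction, together with their later descendants. With 1 library per group no test between the groups was possible. Every interval given is an exact 95% interval that covers counting error only, and a difference is called beyond counting error where its interval leaves out equality.

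Notch signalling passes between touching cells. A ligand of the Delta-like or Jagged family on one cell binds a receptor on its neighbour, proteases cut the receptor, and the freed intracellular domain joins Rbpj in the nucleus, where Hes and Hey genes, which encode repressors of transcription, are switched on. In resting muscle this pathway is known to keep SCs quiescent and to hold back myogenic differentiation, and loss of Rbpj from SCs lets them leave quiescence without injury.

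Levels are sums of unique molecular identifiers (UMIs) per library, given as counts per 1000000 UMIs (CPM). Barcodes with at least 500 genes and at most 10% mitochondrial UMIs were kept, which left 516 QSC barcodes with 1162091 UMIs and 1468 ASC barcodes with 8895815 UMIs. A count of 0 allows up to 3 UMIs, which were worth 2.58 CPM in QSCs and 0.337 CPM in ASCs. A CPM is a share of all UMIs and not a level per cell. Median depth was 2155 UMIs in QSC and 3502 UMIs in ASC kept barcodes. The barcodes did not all carry the profile of the sorted cell type. Barcodes with 5% or more of their UMIs from 10 genes of the contractile apparatus of the myofibre numbered 104 in the QSC and 939 in the ASC library, and these are called contractile-high. Clusters with the markers of macrophages, neutrophils, fibroblasts or endothelial cells held 42 QSC and 115 ASC barcodes. The other 370 QSC and 414 ASC barcodes, called contractile-low muscle cells, held 846624 and 5285178 UMIs. All 9 markers of quiescent SCs had UMIs in both libraries, with summed levels of 4173 CPM in QSC and 987 CPM in ASC contractile-low cells. There were 2 kept barcode sequences that occurred in both libraries.

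The promoters of 7 of the 10 genes were matched by symbol in the RefSeq table of GRCm38.p6, with 9 windows in all. The genes Hes1, Hey1 and Heyl had no entry. The windows of Notch3 and Jag1 are shown because these genes had the lowest ASC levels relative to QSC, that of Dll1 because it was the gene called higher in ASCs in contractile-low muscle cells, and that of Rbpj because it encodes the factor that binds DNA in this pathway. Each line gives the 250 bases before the transcription start, 5′ to 3′ on the strand of the gene. Capitals mark TGGGAA, the core letters bound by Rbpj, or its reverse TTCCCA, and CAGCTG, an E-box of the kind bound by myogenic factors.
Notch3: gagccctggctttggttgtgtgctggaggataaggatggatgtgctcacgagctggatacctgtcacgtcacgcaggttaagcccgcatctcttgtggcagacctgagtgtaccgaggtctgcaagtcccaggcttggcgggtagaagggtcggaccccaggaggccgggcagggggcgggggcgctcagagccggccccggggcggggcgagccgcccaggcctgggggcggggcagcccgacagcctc
Jag1: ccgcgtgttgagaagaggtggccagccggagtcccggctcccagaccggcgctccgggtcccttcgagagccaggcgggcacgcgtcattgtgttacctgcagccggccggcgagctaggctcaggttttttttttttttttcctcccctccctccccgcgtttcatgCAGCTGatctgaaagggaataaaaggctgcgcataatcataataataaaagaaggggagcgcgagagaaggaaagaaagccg
Dll1: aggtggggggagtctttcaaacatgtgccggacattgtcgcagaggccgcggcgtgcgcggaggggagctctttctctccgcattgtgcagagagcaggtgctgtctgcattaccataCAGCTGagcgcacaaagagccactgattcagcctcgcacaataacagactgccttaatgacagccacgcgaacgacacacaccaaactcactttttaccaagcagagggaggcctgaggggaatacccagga
Rbpj: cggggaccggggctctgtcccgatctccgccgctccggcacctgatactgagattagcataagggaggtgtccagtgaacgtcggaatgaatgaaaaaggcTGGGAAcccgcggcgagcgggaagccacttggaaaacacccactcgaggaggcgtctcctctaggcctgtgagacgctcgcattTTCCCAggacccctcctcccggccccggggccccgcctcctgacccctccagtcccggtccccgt
The Notch3 window lies at chr17:32166891-32167140 on the minus strand, the Jag1 window at chr2:137116521-137116770 on the minus strand, the Dll1 window (the second of its 2 windows) at chr17:15376933-15377182 on the minus strand, and the Rbpj window (the first of its 2 windows) at chr5:53590096-53590345 on the plus strand. The letters TGGGAA, searched on both strands, were found in both Rbpj windows, which overlap, and in no other of the 9 windows. The targets Hes1, Hey1 and Heyl could not be searched. In the window shown they begin 149 and 65 bases before the start. Of 32851 windows of the same length over all genes, 21.6% held these letters. The palindrome CAGCTG was found in the Dll1 window shown, 132 bases before the start, and in the Jag1 window, 82 bases before the start, and 13.0% of all windows held it. A match describes the letters and is not evidence of binding.

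All 3 receptors were lower in CPM in the ASC library, with Notch3 furthest apart. Notch3 (chromosome 17, 32120820 to 32166852), a receptor of SCs and of the mural cells of vessels, was at 96.4 CPM (interval 79.4 to 116) in QSCs and at 10.9 CPM (8.84 to 13.3) in ASCs. These levels, from 112 and 97 UMIs, made Notch3 8.84-fold lower in ASCs, a log2 ratio of -3.14 (-3.55 to -2.74). Notch2 (chromosome 3, 98013527 to 98150361), the most abundant receptor in both libraries on the UMI scale, was at 204 CPM (179 to 232) in QSCs and 37.4 CPM (33.5 to 41.7) in ASCs. It was 5.45-fold lower in ASCs, with a log2 ratio of -2.45 (-2.69 to -2.20). Notch1 (chromosome 2, 26457903 to 26516663), a receptor with broad roles in stem cells, differed least. It was at 31.8 CPM (22.4 to 43.9) in QSCs and 14.4 CPM (12.0 to 17.1) in ASCs, a log2 ratio of -1.15 (-1.68 to -0.58). The interval of the Notch1 log2 ratio did not overlap those of Notch2 and Notch3. The gene bodies of Notch1, Notch3, Rbpj and Dll1 overlap genes on the opposite strand. Their counts therefore depend on how strand was handled, which is not given in the sources used here.

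The ligands did not share a direction. Jag1 (chromosome 2, 137081456 to 137116644), a ligand of the Jagged family, was at 34.4 CPM (24.6 to 46.9) in QSCs and 3.26 CPM (2.18 to 4.68) in ASCs. It was 10.6-fold lower in ASCs, with a log2 ratio of -3.40 (-4.14 to -2.67), the lowest of the 10 genes. Dll1 (chromosome 17, 15367354 to 15376872), the Delta-like ligand known from the muscle lineage of the embryo, was at 10.3 CPM (5.34 to 18.0) in QSCs and 15.2 CPM (12.7 to 18.0) in ASCs. Its log2 ratio of 0.56 (-0.30 to 1.54) was within counting error. Of the 12 QSC UMIs of Dll1, 58.3% came from 5 cells. Jag2 (chromosome 12, 112907819 to 112929776), the other Jagged ligand, had only 2 UMIs in QSCs against 33 in ASCs, and its log2 ratio of 1.11 (-0.86 to 4.21) could not be told from equality at this depth.

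The target genes Hes1, Hey1 and Heyl were all lower in ASCs, by different amounts, and Rbpj was not. Hes1 (chromosome 16, 30064384 to 30067796), whose protein represses transcription in many stem cells, had the highest level of the 10 genes. It was at 413 CPM (377 to 452) in QSCs and 57.2 CPM (52.4 to 62.4) in ASCs, 7.22-fold lower, with a log2 ratio of -2.85 (-3.03 to -2.67). Heyl (chromosome 4, 123233556 to 123249875), a relative of Hes1 used as a readout of Notch activity in SCs, was at 89.5 CPM (73.1 to 108) in QSCs and 21.1 CPM (18.2 to 24.4) in ASCs, a log2 ratio of -2.08 (-2.44 to -1.72). Hey1 (chromosome 3, 8663359 to 8667256), a repressor of the same family, was at 23.2 CPM (15.3 to 33.8) and 9.22 CPM (7.33 to 11.4), and its log2 ratio was -1.33 (-1.98 to -0.65). The intervals of the log2 ratios of the 3 targets were apart between Hes1 and Heyl and overlapped between Heyl and Hey1. Rbpj (chromosome 5, 53466152 to 53657362), the DNA-binding partner of every Notch receptor, was at 37.0 CPM (26.8 to 49.8) in QSCs and 30.01 CPM (26.5 to 33.8) in ASCs. The log2 ratio of Rbpj, -0.30 (-0.77 to 0.20), was within counting error, which does not show equal levels.

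Across the set, 7 of 10 genes were lower in ASCs beyond counting error, 0 were higher and 3 were not apart, and the count of 7 held under TMM and median-of-ratios scaling. The background was large, since 26.5% of all 14443 genes were lower and 17.7% were higher by the same rule. Among genes with at least 30 UMIs over both libraries, as all 10 of these genes had, 29.8% were lower and 24.7% were higher. The median log2 ratio of the 10 genes was -1.72, beside -0.24 over the 5730 genes with enough counts for a median in both libraries. Relative to that median gene, Notch3 stood at -2.91, Hes1 at -2.61, Rbpj at -0.06 and Dll1 at 0.79. The count of lower genes was 6 with a mitochondrial limit of 5%. At the limit of 1% stated in the study's methods, 86 QSC barcodes remained, of which 85 were contractile-high, and 0 of the 10 genes were lower beyond counting error.

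**Figure D1:**
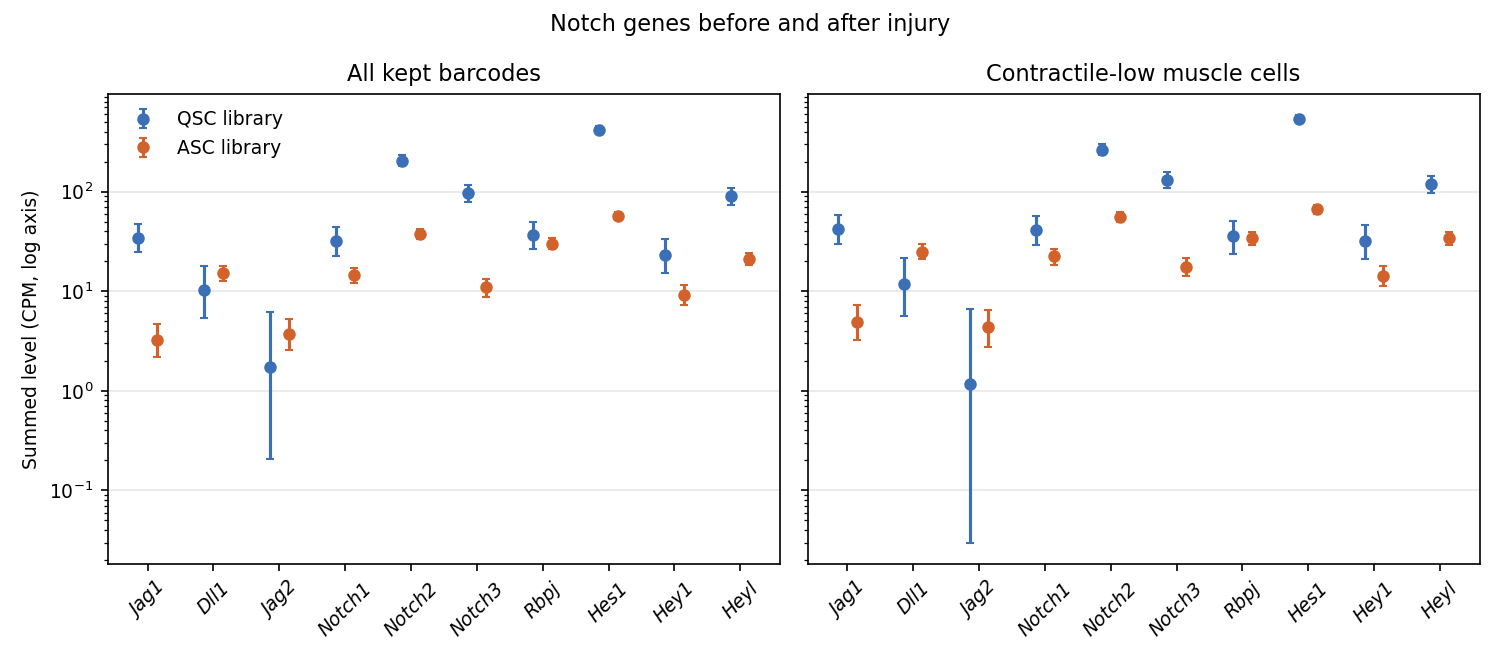
Summed level of each Notch gene in CPM (log axis) in the QSC library (blue) and the ASC library (orange), over all kept barcodes on the left and contractile-low muscle cells on the right, with exact 95% Poisson intervals as bars. Blue points stand above orange points for the 3 receptors, Jag1 and the 3 targets, the points of Rbpj overlap, and Dll1 is the gene where orange stands higher beyond counting error, on the right only.

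The makeup of the libraries moved with these differences, so the genes were read again in contractile-low muscle cells. In these cells 7 genes were again lower in ASCs and 1 was higher, beside 22.8% and 16.6% of all genes, or 26.7% and 23.0% of those with at least 30 UMIs. Hes1 was at 537 CPM in QSCs and 66.8 CPM in ASCs, with a log2 ratio of -3.01 (-3.21 to -2.80). Notch3 was at 131 CPM (108 to 158) and 17.6 CPM (14.2 to 21.6), with a log2 ratio of -2.90 (-3.31 to -2.49). Both genes thus kept about the ratio they had over all barcodes. Notch2, at 265 and 55.8 CPM, had a log2 ratio of -2.24 (-2.50 to -1.99), and Jag1, at 42.5 and 4.92 CPM, one of -3.11 (-3.90 to -2.34). Heyl, at 118 and 34.1 CPM, had a log2 ratio of -1.79 (-2.15 to -1.43). The smaller differences were those of Hey1, with a log2 ratio of -1.17 (-1.82 to -0.48), and Notch1, with -0.89 (-1.44 to -0.30). Rbpj was at 35.4 and 34.1 CPM, a log2 ratio of -0.06 (-0.62 to 0.55). Dll1 was the gene that stood higher. It was at 11.8 CPM (5.66 to 21.7; 10 UMIs) in QSCs and 25.0 CPM (20.9 to 29.6; 132 UMIs) in ASCs, 2.11-fold higher, with a log2 ratio of 1.08 (0.16 to 2.17). Dll1 is an uncertain call, since over all barcodes it lay within counting error and the mean of the per-barcode levels gave a log2 ratio of -0.67. These ratios compare shares of all UMIs, and the median depth was 2221.5 UMIs in QSC and 8483 UMIs in ASC contractile-low cells. In the 370 QSCs and 414 ASCs, Notch2 had 224 and 295 UMIs, Heyl 100 and 180, and Notch1 35 and 118. Hey1 had 27 and 75 UMIs, and Rbpj 30 and 180. Per cell these genes were thus not lower in ASCs, whereas Hes1 (455 and 353), Notch3 (111 and 93) and Jag1 (36 and 26) were. Markers of other cell types were present in the contractile-low cells. The 8 endothelial markers summed to 35.4 CPM in QSCs, with Kdr, Cldn5 and Emcn at 0, and to 15.5 CPM in ASCs, with Cdh5 at 0. The 8 mural markers summed to 385 and 1269 CPM, with Cspg4 at 0 in QSCs. The 8 fibroblast markers summed to 4113 and 962 CPM, with Pdgfra and Smoc2 at 0 in ASCs. The part of these other cells in the differences was not tested.

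Among contractile-high barcodes of the ASC library, Hes1 was the gene of the set with the highest level. In 939 ASC barcodes of this kind Hes1 was at 43.4 CPM (36.2 to 51.5; 130 UMIs), a level 1.54-fold below that of ASC contractile-low cells. The other genes of the set were at 7.01 CPM or less there, and Jag1 had no UMI. Notch2, for comparison, was at 2.00 CPM (6 UMIs) in contractile-high barcodes and 55.8 CPM in contractile-low cells, a log2 ratio of -4.80 (-6.26 to -3.66). Hes1 in these barcodes therefore did not keep the ratio to Notch2 that it had in contractile-low cells. In the 104 QSC contractile-high barcodes Hes1 had 5 UMIs, or 23.3 CPM, and the log2 ratio between the libraries, 0.90 (-0.36 to 2.54), was within counting error and opposite in sign to that of contractile-low cells.

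Once depth was evened out, the shares of cells with Hes1, Notch2, Notch3 and Heyl were also lower in ASCs. Evening out depth ties a share of cells to the CPM level, so these shares are not separate support. Each cell was thinned to 1200 UMIs, which left out 4 QSC and 5 ASC contractile-low cells. Hes1 was then found in 35.8% (30.9 to 40.9) of 366 QSCs and 9.54% (6.87 to 12.8) of 409 ASCs. Notch2 was found in 23.0% and 9.29%, Notch3 in 13.9% (10.6 to 17.9) and 3.67% (2.07 to 5.98), and Heyl in 11.7% (8.63 to 15.5) and 5.38% (3.40 to 8.03). Notch1 was found in 4.10% and 3.67% of cells and Hey1 in 3.83% and 1.96%, each with overlapping intervals. Macrophage/monocyte-like cells of the ASC library, which should lack Heyl, had it in 0 of 83 thinned cells, which allows a share of up to 3.61% of cells with a UMI (3 counts) and says nothing of cells that express it below this depth, and had Hes1 in 2.41% of cells. In the QSC library only 12 such cells reached this depth, of which 8.33% (0.211 to 38.5) had Heyl and 16.7% (2.09 to 48.4) had Notch2, so the background of the QSC shares was not bounded. Median depths before thinning were 2225 UMIs in the QSCs, 8712 in the ASCs and 6490 in the macrophage/monocyte-like cells. Without thinning, when ASCs were far deeper, the shares in contractile-low cells were 49.2% of QSCs and 34.1% of ASCs for Hes1 and 25.1% and 16.9% for Notch3. For Notch2 they were level, at 34.9% and 33.8%, and for Heyl, at 21.1% and 26.8%, Notch1, at 8.92% and 21.5%, and Hey1, at 6.22% and 14.01%, they stood higher in ASCs. The lower ASC shares of Notch2 and Heyl thus depend on evening out the depth.

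Receptors, ligands and targets were also counted in the same cells. After thinning, 36.1% (31.1 to 41.2) of QSC contractile-low cells had a UMI of at least 1 receptor, 45.1% (39.9 to 50.3) of at least 1 target, and 16.4% (12.7 to 20.6) of both. In ASCs these shares were 15.4% (12.0 to 19.3), 15.6% (12.3 to 19.5) and 3.42% (1.88 to 5.68). The product of the separate shares of receptor and target, 16.3% in QSCs and 2.41% in ASCs, lay within the interval of the joint share in each library. A ligand was found in 6.56% of QSCs and 3.67% of ASCs, with overlapping intervals, and a receptor together with a ligand in 3.28% and 1.22%. No gene of the set was detected in 32.8% (28.0 to 37.9) of QSCs and 67.7% (63.0 to 72.2) of ASCs at this depth.

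Within the ASC library the genes were spread unevenly over the clusters, which had been built without any gene of the wider Notch list. Cluster 3 held 242 QSC contractile-low cells and carried 6 of 9 quiescent SC markers, with early-response genes such as Fosb, Maff and Egr1 leading it. Cluster 2 held 230 ASC contractile-low cells with higher Pax7, Spry1, Vcam1 and Fgfr4 and is left unnamed, since interferon-induced and matrix genes (Iigp1, Ifit1, Bgn) led it. Cluster 4, with 103 such ASCs, was led by cell cycle genes (Rrm2, Cdc20, Birc5) and is also unnamed. Cluster 9, with 46 such ASCs, was activated satellite-like, led by Cdkn1c, Mymk and Myog, the genes of cell cycle exit, fusion and differentiation. The values below describe these clusters, since the cells were grouped on their own expression. Median depth in contractile-low cells was 2404 UMIs in QSC cluster 3. It was 5688.5, 27551 and 11888.5 UMIs in ASC clusters 2, 4 and 9. Levels in CPM are shares of all UMIs, so their order need not be that of UMIs per cell.

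**Figure D2:**
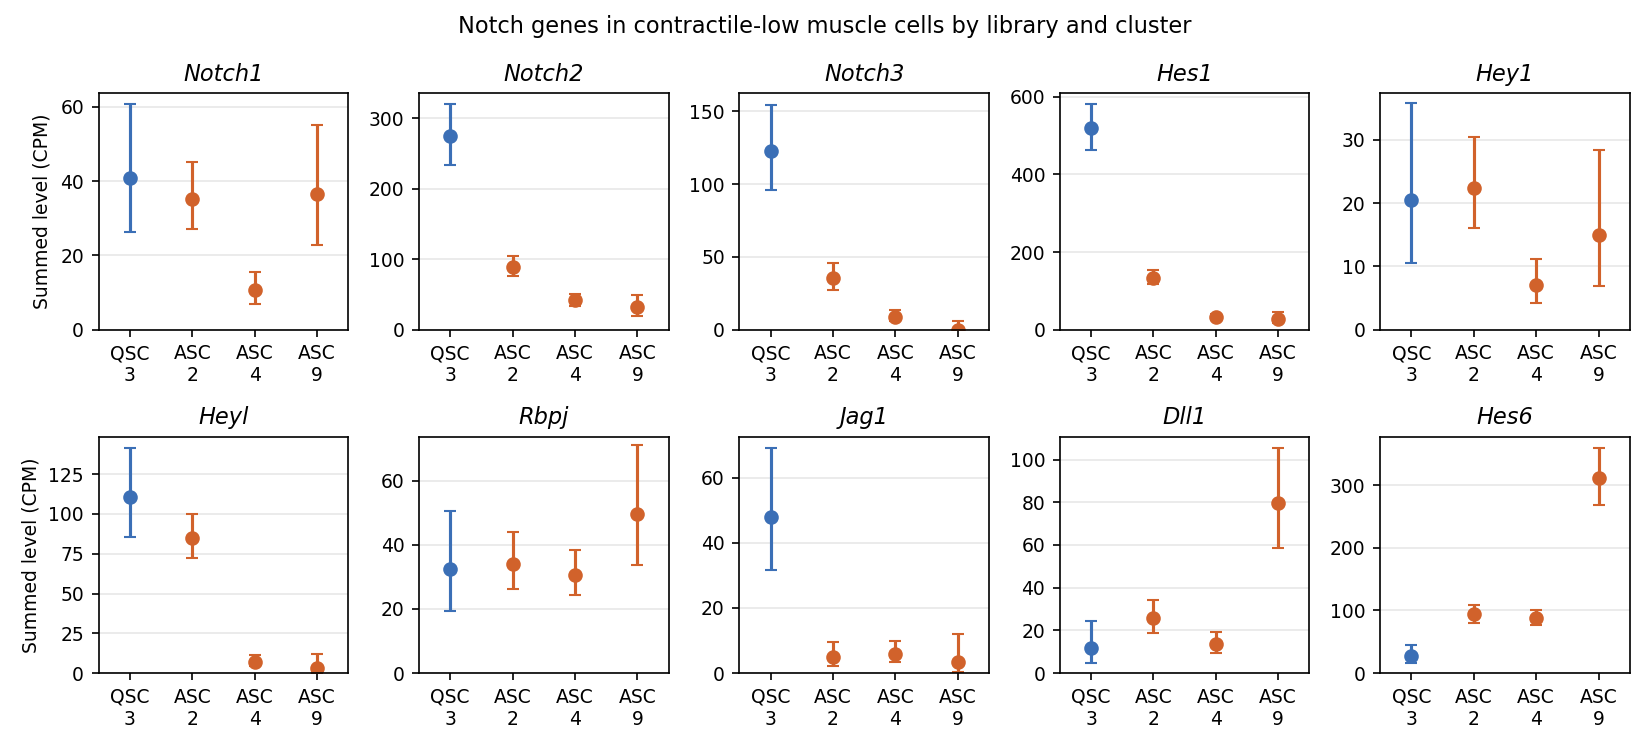
Summed level (CPM, linear axes starting at 0) of 10 genes in contractile-low cells of QSC cluster 3 (blue) and ASC clusters 2, 4 and 9 (orange), with exact 95% Poisson intervals as bars. Heyl stays high in ASC cluster 2 and is low in clusters 4 and 9, whereas Dll1 and Hes6 stand highest in cluster 9.

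Heyl was spread very unevenly over the ASC clusters. It was at 111 CPM (85.5 to 141) in QSC cluster 3 and 85.1 CPM (72.1 to 99.8) in ASC cluster 2, which left the log2 ratio of -0.38 (-0.81 to 0.06) within counting error. In cluster 4 Heyl was at 7.08 CPM and in cluster 9 at 3.32 CPM, log2 ratios to cluster 2 of -3.59 (-4.38 to -2.88) and -4.68 (-7.74 to -2.80). In CPM, Hes1 followed another course, since it was already lower in ASC cluster 2. Hes1 was at 518 CPM (462 to 580) in QSC cluster 3, 134 CPM (118 to 152) in ASC cluster 2, 33.0 CPM in cluster 4 and 28.2 CPM in cluster 9. The step in CPM from QSC cluster 3 to ASC cluster 2 was a log2 ratio of -1.95 (-2.20 to -1.70) for Hes1. Its interval was apart from that of Heyl. In the 242 cells of QSC cluster 3 and the 230 of ASC cluster 2, Hes1 had 304 and 240 UMIs and Heyl 65 and 152. Per cell Heyl thus stood higher in ASC cluster 2 and Hes1 a little lower. Hey1 and Notch1 were, like Heyl, not apart between QSC cluster 3 and ASC cluster 2, with log2 ratios of 0.13 (-0.83 to 1.20) and -0.21 (-0.91 to 0.53).

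In CPM, Notch3 and Notch2 were highest in QSC cluster 3, lower in ASC cluster 2 and lowest in clusters 4 and 9. Notch3 was at 123 CPM in QSC cluster 3, 35.8 CPM (64 UMIs) in ASC cluster 2, 9.05 CPM in cluster 4 and had no UMI in cluster 9. Against the limit of 3 UMIs over cluster 9, Notch3 there was lower than in cluster 2 by at least 2.85 on the log2 scale (log2 ratio -2.85 at that limit). Notch2 was at 275, 89.0, 41.7 and 31.5 CPM in the same order. Per cell the order differed. Notch2 had 161 UMIs in the 242 cells of QSC cluster 3, 159 in the 230 of ASC cluster 2 and 106 in the 103 of cluster 4. Notch1 broke the order in CPM. It was at 40.9 CPM in QSC cluster 3, 35.3 in ASC cluster 2, 10.6 in cluster 4 and 36.5 in cluster 9, and its log2 ratio between clusters 9 and 2 was 0.05 (-0.72 to 0.77), within counting error. Jag1 was at 47.7 CPM in QSC cluster 3 and between 3.32 and 5.90 CPM in the 3 ASC clusters. Rbpj stayed between 30.7 and 49.7 CPM in all 4 places.

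Dll1 was highest where Notch3 and Heyl were lowest. It was at 79.6 CPM (58.7 to 106; 48 UMIs) in cluster 9, 25.8 CPM (18.9 to 34.3; 46 UMIs) in cluster 2, 13.8 CPM in cluster 4 and 11.9 CPM in QSC cluster 3. The log2 ratio of cluster 9 to cluster 2 was 1.63 (1.01 to 2.24). Hes6, which antagonizes Hes1 and promotes differentiation, was also highest in cluster 9, at 312 CPM beside 94.0 CPM in cluster 2, and Megf10, a receptor of SCs tied to Notch, was at 138 beside 40.9 CPM. Dtx4, a ubiquitin ligase of the Deltex family that acts on Notch, was at 6.63 beside 53.2 CPM. Pax7, the defining factor of SCs, had no UMI in cluster 9 and was at 64.4 CPM in cluster 2, and Myog was at 6610 and 410 CPM.

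A split by Pax7 and Myog alone, chosen after the clusters were seen, gave the directions of the activated satellite-like cluster for Heyl, Hes1, Notch3 and Dll1. It regrouped the same ASC contractile-low cells, and that cluster was itself led by Myog and had no Pax7 UMI. Part of the likeness is therefore built in, and the split is not an independent check of the clusters. Of the 414 ASC contractile-low cells, 58 had a Pax7 UMI and no Myog UMI, 168 had Myog and no Pax7, 44 had both and 144 neither. The median depths were 6319 UMIs in the Pax7-only and 13338.5 UMIs in the Myog-only cells, so absence of a UMI meant more in the latter. Heyl was at 67.3 CPM in Pax7-only and 20.3 CPM in Myog-only cells, a log2 ratio of -1.73 (-2.34 to -1.11). Hes1 was at 124 and 33.5 CPM, with a log2 ratio of -1.90 (-2.35 to -1.44), and Notch3 at 33.6 and 7.47 CPM, with -2.17 (-3.13 to -1.21). Both were thus lower in cells with Myog, as Heyl was. Dll1 was at 13.5 CPM (8 UMIs) and 32.7 CPM (92 UMIs), a log2 ratio of 1.28 (0.24 to 2.54). Notch1, Hey1 and Rbpj were within counting error between these cells.

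Among QSCs, Hes1 differed with the early-response state of the cells. The 370 QSC contractile-low cells were divided at their median share of UMIs from 10 early-response genes such as Fos, Jun and Egr1, which was 2.60%. This is a range and not a cell type, and 55 of the cells had a share within 0.1 of the median, relative to it. Hes1 was at 756 CPM in the 185 cells above the median and 323 CPM in the 185 below, a log2 ratio of 1.23 (0.93 to 1.53). Heyl was at 122 and 115 CPM, with a log2 ratio of 0.09 (-0.51 to 0.68), and Hey1 at 35.8 and 28.1 CPM, with 0.35 (-0.85 to 1.58). The interval of Hes1 was thus apart from that of Heyl and overlapped that of Hey1. Notch3 went the other way, at 103 and 159 CPM, with a log2 ratio of -0.63 (-1.22 to -0.06), and Notch2 was at 267 and 262 CPM. Pax7 was at 215 and 213 CPM, and the median depth was 2216 and 2226 UMIs. In the cells below the median Hes1 still stood above its level of 66.8 CPM in ASC contractile-low cells. The QSC contractile-low cells outside cluster 3 differed from those inside it in Hey1, at 57.6 and 20.5 CPM, a log2 ratio of 1.49 (0.30 to 2.72), and in no other gene of the set beyond counting error. In QSCs with a Pax7 UMI Notch2 was lower than in those without, with a log2 ratio of -0.45 (-0.89 to -0.03), and the other 9 genes were within counting error.

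**Figure D3:**
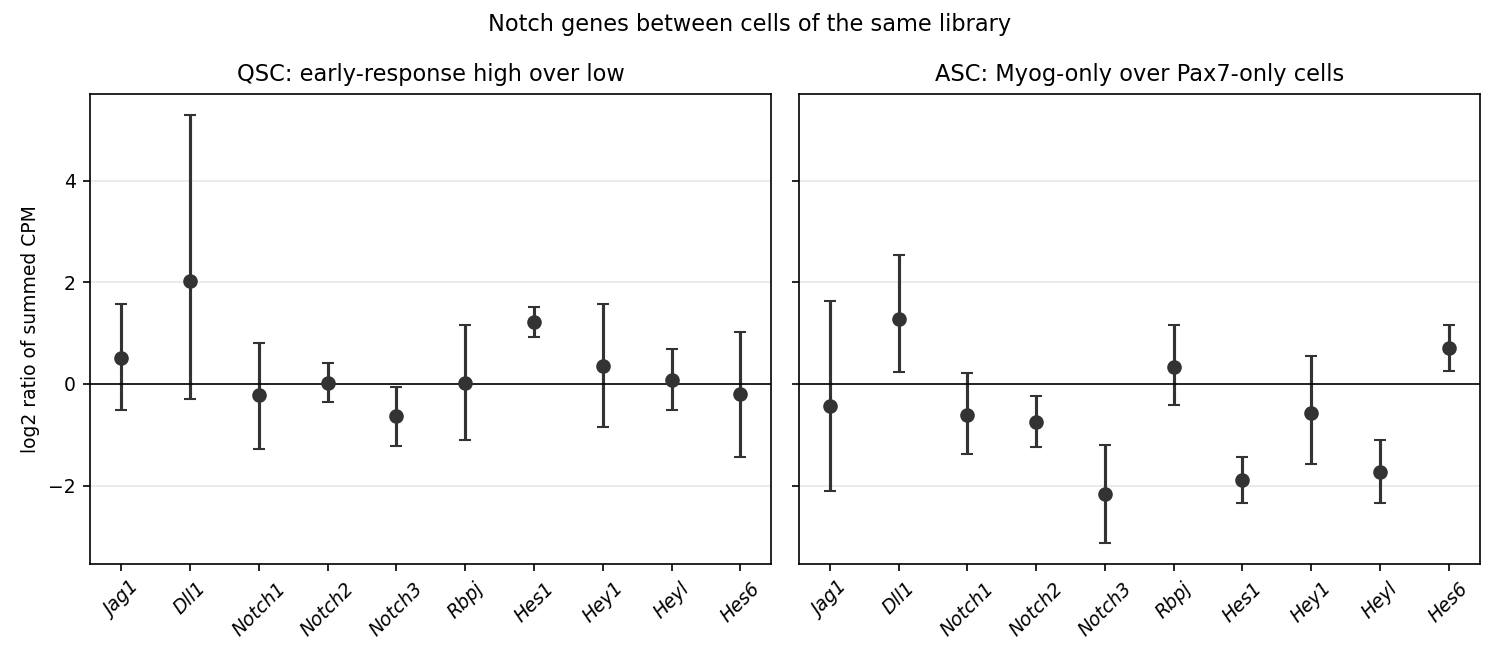
Log2 ratio of summed CPM, with exact 95% intervals as bars, between QSC contractile-low cells above and below the median early-response share (left) and between ASC contractile-low cells with Myog only and with Pax7 only (right). On the left Hes1 alone stands above 0 beyond counting error and Notch3 below it, and on the right Dll1 and Hes6 stand above 0 while Notch2, Notch3, Hes1 and Heyl stand below.

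Immune cells of the ASC library carried part of the Rbpj signal. In the 85 macrophage/monocyte-like cells Rbpj was at 110 CPM (84.0 to 142; 60 UMIs), beside 34.1 CPM in ASC contractile-low cells, a log2 ratio of 1.69 (1.25 to 2.12). Notch2 was at 53.2 CPM there, within counting error of its level in ASC contractile-low cells. Notch3, Hey1 and Dll1 had no UMI in these cells and Heyl had 1.

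The wider pathway list held 60 genes, chosen by role, with 58 detected and Hes5 and Hey2 without a UMI. Apart from the 10 genes above it held 50, of which 26 were lower in ASCs beyond counting error, 3 were higher and 19 were not apart over all kept barcodes, beside the 26.5% lower and 17.7% higher of all genes. The median log2 ratio of these other genes was -1.11. In contractile-low cells 21 were lower and 2 higher, beside 22.8% and 16.6% of all genes, and the median was -0.88.

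**Figure D4:**
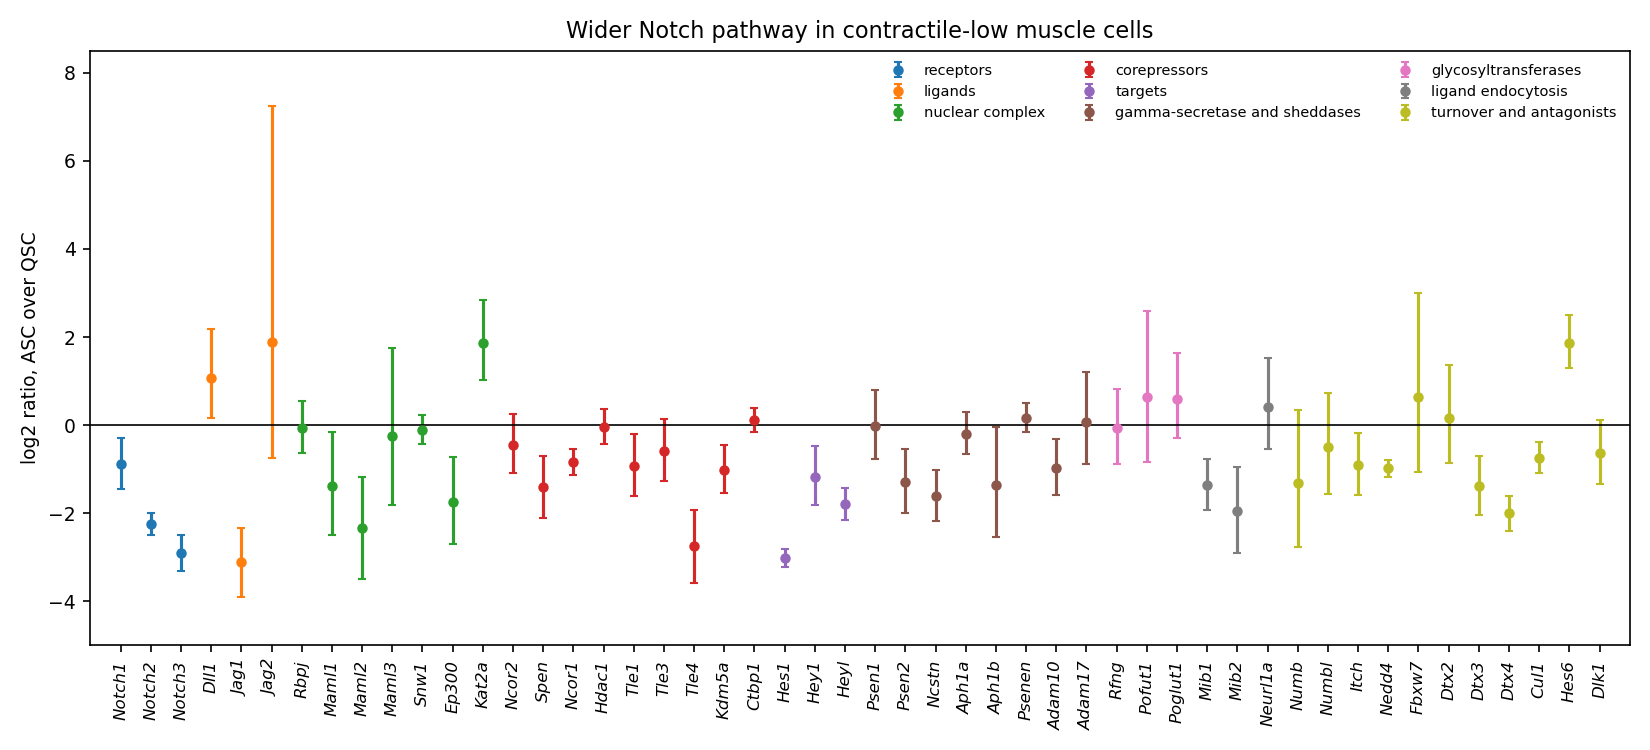
Log2 ratio of ASC over QSC contractile-low cells for the 50 genes of the wider Notch list with at least 20 UMIs, coloured by role, with exact 95% intervals as bars. The plotted receptors and targets lie below 0, the glycosyltransferases straddle it, and Kat2a, Hes6 and Dll1 lie above it beyond counting error.

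By role, the counts over all kept barcodes, beside 26.5% lower of all genes, were as follows. Of 9 corepressors, which hold Rbpj targets silent when no receptor is cut, 7 were lower, and those past 2-fold with enough UMIs to be named were Tle4, at a log2 ratio of -1.84, Spen, at -1.53, Kdm5a, at -1.27, and Ncor1, at -1.04. Of 8 genes of the gamma-secretase complex and the sheddases, the proteases that cut the receptor, 4 were lower and 1, Psenen, was higher, with a log2 ratio of 0.38 (0.11 to 0.66) that in contractile-low cells was within counting error, at 0.16 (-0.16 to 0.50). Nicastrin (Ncstn), a subunit of gamma-secretase, was at 43.0 CPM in QSCs and 10.7 CPM in ASCs, a log2 ratio of -2.01 (-2.52 to -1.49). The catalytic subunit presenilin 2 (Psen2) had a log2 ratio of -1.51 and the sheddase Adam10 one of -1.20. Of 5 glycosyltransferases that add sugars to the receptor, 0 were beyond counting error in either direction. Mib1, a ubiquitin ligase that activates ligands by endocytosis, had a log2 ratio of -1.49 (-2.03 to -0.93). Of 11 genes of turnover and antagonism, 8 were lower, among them Dtx4 at a log2 ratio of -2.25 (-2.64 to -1.86), Nedd4 at -1.28, Dtx3 at -1.21 and Itch at -1.20. Of 7 genes of the nuclear complex, 3 were lower and 1, Kat2a, was higher. Kat2a, a histone acetyltransferase, was at 11.2 CPM in QSCs and 36.6 CPM in ASCs, with a log2 ratio of 1.71 (0.92 to 2.64). The other gene that stood higher was Hes6, at 25.8 and 76.0 CPM, with a log2 ratio of 1.56 (1.03 to 2.14). In contractile-low cells 5 of the 9 corepressors and 4 of the 8 protease genes were lower, beside 22.8% of all genes. So were 3 of the 7 genes of the nuclear complex, 0 of the 5 glycosyltransferases and 5 of the 11 genes of turnover and antagonism. Less than 2-fold lower there were Ncor1, at a log2 ratio of -0.84, Adam10, at -0.98, Nedd4, at -0.98, and Itch, at -0.91. Differences between the roles were not tested.

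Of 12 genes that have been tied to Notch in SC quiescence, 10 were lower in ASCs over all kept barcodes and 9 in contractile-low cells, beside 26.5% and 22.8% of all genes, and the examples given here were chosen after their values were seen. In contractile-low cells Pax7 was at 214 and 29.7 CPM, a log2 ratio of -2.85 (-3.17 to -2.53). Calcr, the calcitonin receptor that keeps SCs quiescent, was at 28.3 and 3.03 CPM, a log2 ratio of -3.23 (-4.24 to -2.25). Col5a3, a chain of the collagen that feeds back on Calcr, was at 95.7 and 15.1 CPM, with -2.66 (-3.12 to -2.20). Spry1, an inhibitor of growth factor signalling, had a log2 ratio of -2.32 and Sdc4, a surface proteoglycan, one of -2.23. Col5a2 was lower over all barcodes, at -1.33, but within counting error in contractile-low cells, at -0.12 (-0.56 to 0.34), and a fibroblast-like cluster of 17 QSC and 1 ASC barcodes lay outside the latter. Megf10 was not apart in either set.

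The genes whose levels over the libraries and clusters were most like those of the 3 most abundant members were taken by Pearson's r of log2(CPM + 10) over 13 sums of at least 20 cells. For Hes1 these were Plpp3 (r = 0.97), Ccl19 (0.95) and Il11ra1 (0.95). For Notch2 they were Gm26917 (0.97), Ndfip1 (0.97) and Cd302 (0.96). For Rbpj they were B2m (0.96), H2-K1 (0.95) and Larp4b (0.95). The 13 sums came from 2 libraries and share their depth and handling, so these values describe likeness only.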

How the data were processed

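The 2 libraries were made with 10x Genomics 3′ chemistry from sorted satellite cells. The deposited matrices hold raw UMI counts per gene and barcode. The file headers name Cell Ranger 6.0.2, whereas the submitters' processing notes name Cell Ranger 7.1.0, Seurat 4.1.0, R 4.1.2 and build mm10, and strand handling is not given in the sources used here. Barcodes with at least 500 genes and at most 10% mitochondrial UMIs and genes in at least 3 kept cells were used. UMIs were summed per library and class and divided by total UMIs, with exact Poisson intervals for levels, exact conditional binomial intervals for ratios and Clopper-Pearson intervals for shares. Clustering used Seurat 5.3.0 in R 4.3.3 with the study's settings (10 components, resolution 0.6), after 6 of 1084 variable genes that belong to the wider Notch list were removed. The rule that named clusters was completed after the clusters were seen, and names may therefore differ from the study's. No doublet caller was run, and leaving out the top 5% of barcodes by UMIs stood in for it. Gene positions came from GENCODE M21 (GRCm38), and promoter sequences from RefSeq. The 10 genes were always named, and other pathway genes where they had at least 100 UMIs and a 2-fold ratio beyond counting error. Psenen, Megf10 and the quiescence genes fall outside this rule and were named after their values were seen. The genes and lists were chosen with earlier results of these data known. Ratio intervals were tested on simulated counts that held counting error only, so the clumping of UMIs within cells and the spread between animals were not covered. Other limits, scalings (edgeR 4.0.16), weights and clusterings were tried as alternatives.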

Additional observations from a re-analysis of the deposited data

Results flagged for a closer look

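Barcodes that failed the limits on genes or mitochondrial UMIs were used in no comparison, and in 3 cases a gene of the set had a counting interval wholly above the limit that a count of 0 allows in them. In the 250 QSC barcodes left out, Hes1 was at 108.7 CPM (66.4 to 168; 20 UMIs), where 3 UMIs were worth 16.3 CPM. In the 182 ASC barcodes left out, Notch1 was at 54.9 CPM (25.1 to 104; 9 UMIs) and Notch2 at 79.3 CPM (42.2 to 136; 13 UMIs), where 3 UMIs were worth 18.3 CPM. The Notch1 and Notch2 levels lay above the 14.4 and 37.4 CPM of the kept ASC barcodes. The Hes1 level lay below the 413 CPM of the kept QSC barcodes.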

How the results depend on the processing

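No paired analysis was possible because each group is 1 library and no value comes from a test between samples. Of the log2 ratios of the single genes under the alternatives, 83 moved by less than their counting interval, 21 moved by more and 2, of a gene called lower, turned direction. Both of those were Hes1, at 1.10 with at most 1% mitochondrial UMIs (3 QSC UMIs) and at 0.90 in contractile-high barcodes. The median of the 10 genes, -1.72, became -0.33 with at most 1% mitochondrial UMIs, -0.63 in contractile-high barcodes and -2.74 in clusters named as muscle types, which leave out ASC clusters 2 and 4. The count of lower genes, 7, became 0 with at most 1% mitochondrial UMIs and 0 in contractile-high barcodes, where few UMIs of these genes remained, and was 6 to 8 elsewhere. The count of higher genes, 0, became 1 (Dll1) in contractile-low cells and 1 (Dll1) with TMM scaling, which adds 0.31 to each log2 ratio and puts Rbpj at 0.01. Rbpj was at -0.86 (-1.60 to -0.08) in clusters named as muscle types. Of the genes within counting error, Dll1 also changed sign, to -0.67, with the mean of per-barcode CPM, and Rbpj with TMM scaling as given. Clustering at other resolutions, or with the Notch list among the variable genes, left all 10 ratios in contractile-low cells within their intervals. Depth limits Jag2, with 2 QSC UMIs, and Dll1, with 12.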
